A study of Mus musculus with 40 samples.

Results

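The 10 core circadian clock genes Per1, Per2, Per3, Cry1, Cry2, Arntl, Clock, Nr1d1, Nr1d2 and Dbp were followed across 22 RNA sequencing libraries. They were chosen by symbol, a rule that uses no value of theirs, though earlier results of these data were known, and are 10 of the 55414 genes in the table. The cells were mpkCCD, a mouse collecting duct line that grows without limit, in which dDAVP, an analogue of vasopressin, raises cAMP. All groups were grown on permeable supports, for 4 days in complete medium and then for 3 days in a simple medium with 50 nM dexamethasone, and all received 0.1 nM dDAVP for 72 hours. There was no group without dDAVP, and the labels give no time of day of harvest. Control clones of wild-type genotype made up 11 libraries. The label ATF1-KO (below, the single knockout) had 5, ATF1/CREB1-KO (the double) had 3, and ATF1/CREB1/CREM-KO (the triple) had 3. These names stand for the labels, and the knockouts are named for the transcription factors that bind the cAMP response element (CRE). Nothing in the labels tells whether a knockout's replicates are separate clones, so p-values measure only the spread between these libraries. The 18 rescue samples in the labels were not analysed here.

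The clock is a feedback loop. The BMAL1 protein, encoded by Arntl, pairs with CLOCK and binds E-boxes, where it switches on the Per and Cry genes, whose proteins in turn inhibit BMAL1 and CLOCK. The same pair drives Nr1d1 and Nr1d2, which encode the repressors REV-ERB alpha and REV-ERB beta that hold Arntl down, and Dbp, which encodes an activator acting through D-boxes. In many tissues Per1 and Per2 are known to respond quickly to cAMP through CREB, and Per1 also to glucocorticoids, and the kidney tubule has a clock of its own. In a culture that is not synchronised, cells can be at different phases, and a single harvest gives a level averaged over them.

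The promoters below are shown because the knockouts remove the factors that bind the CRE. RefSeq windows of 300 bases around the annotated start (build GRCm38.p6) were at hand for 9 of the 10 genes, in 13 windows. Per2 had no window in the table. Exact matches on both strands were searched for the full CRE (TGACGTCA), the short CRE core (TGACG), the E-box (CACGTG), the D-box (TTATGTAA) and the core of the REV-ERB element (TAGGTCA). Sites outside these windows, or with any letter changed, were not searched, so an absent match does not show that a gene lacks the motif. The full CRE was in 0 of the 13 windows and in 1.79% of all 32851 windows. The CRE core was in 4 windows, those of Per1, Cry1 and Cry2, and in 20.8% of all windows. An E-box was in 2 windows, the first of Per1 and that of Cry1, and in 7.15% of all windows. Capitals mark the CRE core and, in the first window of Per1 and in Cry1, the E-box.
Per1 first window, chr11:69098699-69098998, plus strand: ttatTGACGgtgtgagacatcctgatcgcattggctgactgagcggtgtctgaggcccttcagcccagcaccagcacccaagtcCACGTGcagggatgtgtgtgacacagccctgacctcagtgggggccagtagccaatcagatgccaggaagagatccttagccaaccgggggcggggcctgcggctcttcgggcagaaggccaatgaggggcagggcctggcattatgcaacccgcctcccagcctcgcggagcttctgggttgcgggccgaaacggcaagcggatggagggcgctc
Per1 second window, chr11:69099902-69100201, plus strand: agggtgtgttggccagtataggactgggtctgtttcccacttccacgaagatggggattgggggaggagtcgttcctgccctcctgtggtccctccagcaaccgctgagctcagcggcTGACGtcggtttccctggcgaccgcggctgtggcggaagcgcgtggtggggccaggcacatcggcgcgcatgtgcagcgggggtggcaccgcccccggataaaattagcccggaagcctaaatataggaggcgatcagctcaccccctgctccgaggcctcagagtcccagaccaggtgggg
Cry1, chr10:85185005-85185304, minus strand: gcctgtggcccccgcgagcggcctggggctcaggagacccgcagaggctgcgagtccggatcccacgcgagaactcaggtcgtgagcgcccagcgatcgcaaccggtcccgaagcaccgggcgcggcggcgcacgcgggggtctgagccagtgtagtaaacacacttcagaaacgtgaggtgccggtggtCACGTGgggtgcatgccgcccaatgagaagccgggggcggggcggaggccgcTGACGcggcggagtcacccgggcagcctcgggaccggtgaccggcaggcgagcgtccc
Cry2, chr2:92434020-92434319, minus strand: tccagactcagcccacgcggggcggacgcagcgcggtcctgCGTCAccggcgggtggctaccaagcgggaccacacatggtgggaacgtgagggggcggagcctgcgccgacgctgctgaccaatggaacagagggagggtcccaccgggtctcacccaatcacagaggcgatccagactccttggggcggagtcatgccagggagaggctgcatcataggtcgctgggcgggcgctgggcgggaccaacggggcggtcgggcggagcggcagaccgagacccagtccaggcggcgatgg

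Counted from the annotated start, the CRE core begins at -246 in the first window of Per1, at -132 in the second, at -8 in Cry1 and, on the other strand, at -209 in Cry2. The Per3 window holds 2 D-boxes, at -205 and -158, a motif in 0.938% of all windows. One window of Arntl holds the REV-ERB core at position 31, a motif in 2.61% of all windows. A match is a run of letters and not a measured binding site.

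Values are TPM (transcript abundance corrected for transcript length and scaled to the same total in each library), and changes are differences of log2(TPM + 1), which understate the change of low genes. Each knockout was compared with the control clones of its own run of library numbers: the single knockout with control clones 1 to 5 (run 1), the double with 6 to 8 (run 2) and the triple with 9 to 11 (run 3). A gene is called where limma's adjusted p (Benjamini-Hochberg over all genes tested) is under 0.05. As a check of the labels, Atf1 was at 63.0% of the control mean in the single knockout, with no overlap between groups but an adjusted p of 0.555 in limma. It overlapped its controls in the double (77.8%, limma adjusted p 0.635) and in the triple (80.8%, limma adjusted p 0.304), where replicate 2 was above all 3 controls. Creb1 was at 61.0% in the double (limma adjusted p 0.471) and 49.6% in the triple (limma adjusted p 0.00305), below all controls in both. Crem was not lower in the triple knockout, at 26.02, 31.61 and 33.81 TPM, all above its controls at 19.98 to 24.87 TPM (limma adjusted p 0.116). For Atf1 and Crem the RNA level therefore does not show the loss that the triple label names. It cannot decide the label either way, since the RNA level is not a measure of the protein. The water channel gene Aqp2, the study's subject, was at 1.02% of the control mean in the triple knockout. Depth is unknown from TPM, and 17296 to 20703 genes were above 0 per library. Ribosomal protein genes took 2.69% to 4.15% of the TPM in runs 1 and 3 and 7.21% to 15.3% in run 2. Of 12 principal cell markers 8 averaged at least 1 TPM, although Tfap2b was at 0 in most groups, and 6 intercalated cell markers together stayed at or under 0.22 TPM in every library. The summed principal cell markers were at 609 to 1396 TPM in the triple knockout and at 1571 to 3650 TPM in its controls. Without Aqp2 the sums overlapped, at 593 to 1381 and 930 to 1371 TPM, and Aqp2 was the only one of the list called in limma. Of those not called, Fxyd4 (26.8% of the control mean), Gata3 (77.1%) and Avpr2 (76.3%) were below all controls in the triple. Aqp3 (181%) was above all controls, and the other tested markers, Scnn1a, Scnn1b, Scnn1g and Hsd11b2, overlapped theirs. Hsd11b2 spread from 34.73 to 558.29 TPM in the triple. Of other markers, Cd68, a leukocyte list member, was at 40.2% of the control mean in the triple (limma adjusted p 0.0371) and Lrp2, of the proximal tubule list, at 45.6% with overlap. The mitochondrial share was 2.06% to 2.63% in the triple knockout and 1.21% to 1.42% in its controls. The part of these in the clock values was not tested.

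None of the 10 clock genes was called in any of the 3 comparisons. In the triple knockout limma called 9.17% of 13258 genes, and 2 of 10 clock genes had an unadjusted p under 0.05, as did 27.0% of all genes. In the single knockout limma called 0% of 13318 genes, and 1 clock gene had an unadjusted p under 0.05, as did 7.61% of all genes. In the double knockout it called 0.0715% of 12579 genes, and 0 clock genes had such a p, beside 9.53% of all genes. The groups did not overlap for 0 clock genes in the single knockout, where 1.30% of all genes did not overlap. In the double knockout this was 1 gene, Cry2, beside 19.0% of all genes. In the triple knockout it was 3 genes, Nr1d1 and Clock higher and Arntl lower, beside 34.6% of all genes. The median change over the 10 genes was -0.04, -0.01 and -0.01 in the single, double and triple knockout, beside -0.00, -0.03 and -0.05 over all genes tested.

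**Figure D1:**
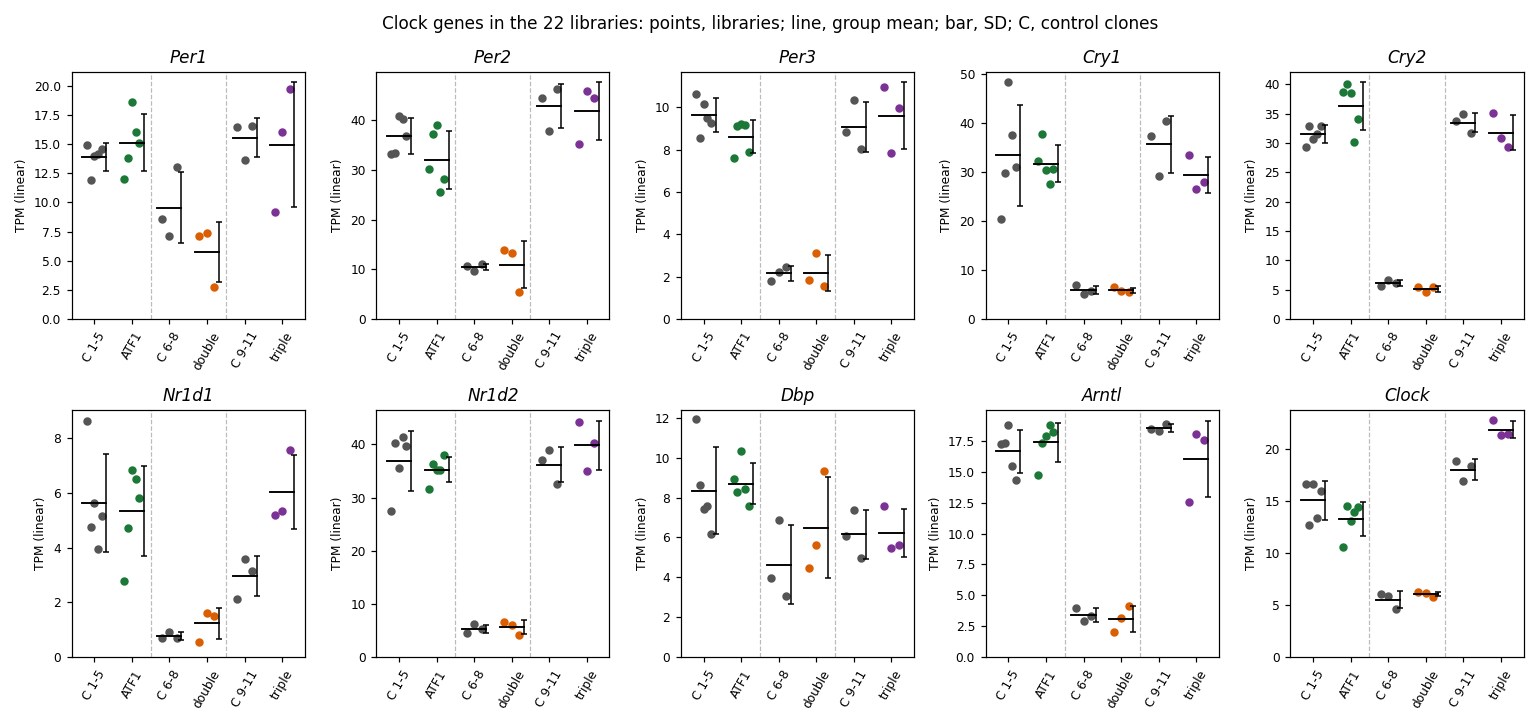
TPM (linear axis from 0) of each clock gene in the 22 libraries, 1 panel per gene, with a point per library, the group mean as a line and the SD as a bar. Dashed lines part the 3 runs, C stands for control clones, and ATF1, double and triple for the knockout labels. In the panel of Nr1d1 the triple knockout lies above its own control clones 9 to 11 but within the range of control clones 1 to 5.

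The largest of the 30 changes was that of a repressor of the second loop. Nr1d1, which encodes REV-ERB alpha, was at 2.14, 3.58 and 3.16 TPM in control clones 9 to 11 and at 5.18, 5.34 and 7.57 TPM in the triple knockout. All 3 knockout libraries were above all 3 controls, at 204% of the control mean. The log2 change was 0.83 (SE 0.22, 95% interval 0.29 to 1.36, n = 3 and 3) with a limma adjusted p of 0.0678, which missed the threshold. Without triple knockout replicate 1 the change was 0.91 and the limma adjusted p 0.0367, in a fit that called 25.1% of all genes. Over the 6 fits that each left out 1 library, the limma adjusted p of Nr1d1 was 0.0367 to 0.199. The triple knockout values were not outside what wild-type clones showed elsewhere, since Nr1d1 was at 8.61, 4.76, 5.62, 3.93 and 5.15 TPM in control clones 1 to 5. The single knockout had 2.77, 4.71, 6.84, 6.51 and 5.82 TPM, a range that holds 4 of those 5 controls. In run 2 Nr1d1 was under 2 TPM throughout, at 0.7, 0.93 and 0.69 TPM in control clones 6 to 8 and at 0.57, 1.63 and 1.49 TPM in the double knockout. There 2 of 3 knockout libraries were above every control and 1 was below every control, with a log2 change of 0.30 (95% interval -0.41 to 1.00). Nr1d1 reached the mean of 1 TPM required for testing only through the knockout libraries, with means of 0.773 TPM in these controls and 1.23 TPM in the double.

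Exons of Nr1d1 share 263 bases with Thra, a thyroid hormone receptor gene on the opposite strand. The labels state no strand setting, so how reads from that stretch were divided between these genes is not known here. Thra was at 45.9 TPM in control clones 9 to 11 and at 51.2 TPM in the triple knockout, a log2 change of 0.15 (limma adjusted p 0.289). Its part in the value of Nr1d1 was not tested.

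Nr1d2, which encodes REV-ERB beta, was at 37.07, 38.93 and 32.54 TPM in control clones 9 to 11 and at 44.21, 35.05 and 40.22 TPM in the triple knockout. The groups overlapped, with a log2 change of 0.13 (95% interval -0.16 to 0.42). It was at 27.42, 40.2, 35.6, 41.34 and 39.77 TPM in control clones 1 to 5 and at 31.66, 36.23, 35.21, 35.19 and 38.06 TPM in the single knockout. It was at 4.58, 6.16 and 5.21 TPM in control clones 6 to 8 and at 6.63, 6.08 and 4.21 TPM in the double. In both runs the knockout libraries lay among or close to the controls, with log2 changes of -0.05 and 0.06.

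Of the activators of the loop, neither was called. Clock was at 18.79, 16.88 and 18.31 TPM in control clones 9 to 11 and at 22.78, 21.27 and 21.44 TPM in the triple knockout. The groups did not overlap, and the triple knockout stood at 121% of the control mean, a log2 change of 0.27 (SE 0.10, 95% interval 0.03 to 0.50, n = 3 and 3) with a limma adjusted p of 0.148. In the other runs Clock was at 16.62, 12.72, 16.57, 13.33 and 15.91 TPM in control clones 1 to 5 and at 10.55, 14.45, 13.03, 13.96 and 14.41 TPM in the single knockout. It was at 6.1, 5.9 and 4.58 TPM in control clones 6 to 8 and at 6.22, 6.17 and 5.81 TPM in the double. The groups overlapped in both, with log2 changes of -0.17 and 0.12.

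Arntl was at 18.43, 18.31 and 18.86 TPM in control clones 9 to 11 and at 12.52, 18.09 and 17.56 TPM in the triple knockout. All 3 knockout libraries were below the controls, replicate 1 by far the most. That gave a log2 change of -0.21 (SE 0.16, 95% interval -0.58 to 0.16, limma adjusted p 0.421). Arntl was at 17.24, 17.34, 18.81, 15.48 and 14.33 TPM in control clones 1 to 5 and at 14.75, 17.34, 17.88, 18.77 and 18.22 TPM in the single knockout. It was at 4.01, 2.91 and 3.32 TPM in control clones 6 to 8 and at 2.05, 3.17 and 4.12 TPM in the double. Neither pair of groups separated, and the log2 changes were 0.06 and -0.13.

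**Figure D2:**
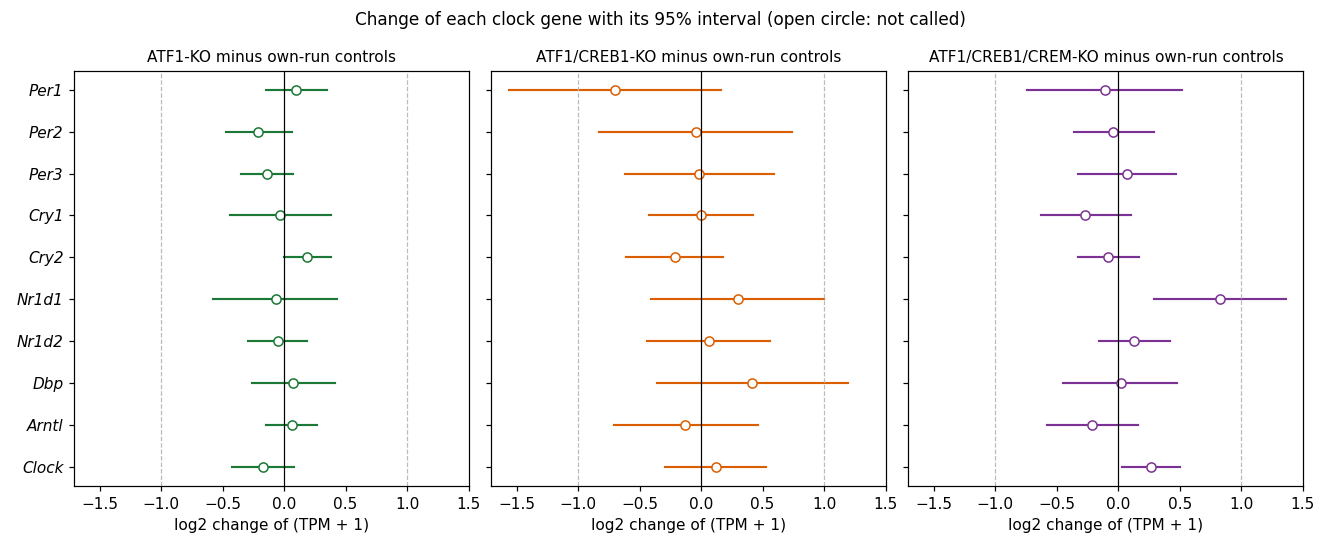
Log2 change of (TPM + 1) of each clock gene against its own-run control clones, with limma's 95% interval. Open circles mark genes that were not called, and dashed lines mark 1 unit on this scale. All 30 circles are open, and Nr1d1 in the triple knockout is the farthest to the right at 0.83.

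The Period genes encode the inhibitors that are known to respond to cAMP. Per1 was at 16.51, 13.62 and 16.58 TPM in control clones 9 to 11 and at 9.15, 16.04 and 19.71 TPM in the triple knockout. The knockout libraries lay both below and above all controls, and the log2 change was -0.11 (SE 0.26, 95% interval -0.74 to 0.52). Without triple knockout replicate 1 it was 0.19, so the direction rested on that library. Per1 was at 8.59, 7.09 and 13.01 TPM in control clones 6 to 8 and at 7.13, 7.35 and 2.73 TPM in the double knockout. The lowest value was in replicate 3, the library whose ribosomal protein share was 7.21%, against 14.4% to 15.3% in the controls of that run. Per1 changed there by -0.70 (SE 0.37, 95% interval -1.56 to 0.16, limma adjusted p 0.601), and without double knockout replicate 3 it was -0.32. In run 1 Per1 was at 14.97, 11.92, 13.95, 14.16 and 14.62 TPM in control clones 1 to 5. It was at 12.03, 13.85, 18.63, 16.02 and 15.11 TPM in the single knockout, with 3 of 5 libraries above every control and a log2 change of 0.10 (95% interval -0.15 to 0.35).

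Per2 was at 44.39, 37.86 and 46.24 TPM in control clones 9 to 11 and at 35.16, 45.85 and 44.4 TPM in the triple knockout. Its log2 change was -0.04 (SE 0.14, 95% interval -0.36 to 0.29), which does not reach a fall by 1 unit. Without triple knockout replicate 1 the change was 0.08. In the double knockout Per2 was at 13.9, 13.29 and 5.43 TPM, against 10.72, 9.66 and 10.98 TPM in control clones 6 to 8. Replicates 1 and 2 were above every control and replicate 3 below every control. The log2 change of -0.04 (95% interval -0.83 to 0.74) became 0.35 without replicate 3, with a limma adjusted p of 0.23. In the single knockout Per2 was at 30.13, 37.18, 39.06, 25.62 and 28.23 TPM, against 33.15, 33.42, 40.75, 40.18 and 36.74 TPM in control clones 1 to 5. Of the 5 knockout libraries 3 were below every control, and the log2 change was -0.21 (95% interval -0.47 to 0.06).

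Per3, the least abundant of the Period genes in each set of control clones, was at 8.83, 10.37 and 8.05 TPM in control clones 9 to 11 and at 10.96, 7.86 and 9.99 TPM in the triple knockout. It was at 10.62, 8.56, 10.18, 9.5 and 9.25 TPM in control clones 1 to 5 and at 7.61, 9.13, 9.24, 9.18 and 7.91 TPM in the single knockout. It was at 1.78, 2.21 and 2.48 TPM in control clones 6 to 8 and at 1.85, 3.13 and 1.54 TPM in the double. The groups overlapped in all 3 comparisons, with log2 changes of -0.14, -0.02 and 0.07 in the single, double and triple knockout.

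The Cryptochrome genes encode the partners of the Period proteins. Cry1 was at 37.4, 29.17 and 40.52 TPM in control clones 9 to 11 and at 33.54, 26.49 and 28.06 TPM in the triple knockout. The groups overlapped, at 82.3% of the control mean (log2 change -0.27, limma adjusted p 0.312). It spread widely among control clones 1 to 5, at 20.48, 29.77, 48.32, 37.53 and 31.0 TPM, and the single knockout lay inside that spread at 32.27, 37.7, 30.46, 27.53 and 30.64 TPM. In run 2 it was at 6.91, 5.17 and 5.66 TPM in the controls and at 6.45, 5.76 and 5.45 TPM in the double knockout, a log2 change of -0.00 (95% interval -0.42 to 0.42).

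Cry2 had the lowest coefficient of variation of the 10 genes in control clones 1 to 5 (4.85%), at 29.35, 32.92, 30.73, 31.61 and 32.95 TPM. The single knockout was at 38.61, 39.99, 38.46, 30.12 and 34.07 TPM, with 4 of 5 libraries above every control. It changed by 0.19 (95% interval 0.00 to 0.38), with an unadjusted p of 0.0476 and a limma adjusted p of 0.654. In the double knockout Cry2 was at 5.37, 4.58 and 5.43 TPM, below all of control clones 6 to 8 at 5.57, 6.64 and 6.08 TPM. The log2 change there was -0.21 (95% interval -0.61 to 0.18, limma adjusted p 0.708). In the triple knockout it was at 35.07, 30.82 and 29.28 TPM, overlapping its controls at 33.81, 34.89 and 31.72 TPM.

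Dbp, the output activator, was at 6.06, 7.4 and 4.99 TPM in control clones 9 to 11 and at 7.59, 5.47 and 5.61 TPM in the triple knockout, a log2 change of 0.02 (95% interval -0.45 to 0.48). It was at 11.92, 8.64, 7.45, 7.59 and 6.17 TPM in control clones 1 to 5 and at 8.91, 8.26, 10.33, 8.42 and 7.56 TPM in the single knockout. In the double knockout it was at 4.48, 5.64 and 9.35 TPM, with replicate 3 the highest, against 3.97, 6.86 and 3.08 TPM in control clones 6 to 8. The log2 change was 0.41 (95% interval -0.36 to 1.19, limma adjusted p 0.708). Exons of Dbp share 539 bases with Sphk2 on the opposite strand, which gave log2 changes of -0.33 in the double and -0.18 in the triple knockout (limma adjusted p 0.612 and 0.33).

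How large a change these libraries could hide differed between comparisons. The 95% interval lay within 1 unit of log2(TPM + 1) in either direction for 10 of 10 clock genes in the single knockout, 8 in the double and 9 in the triple. The same held for 90.4%, 59.3% and 76.1% of all genes tested. The exceptions were Per1 and Dbp in the double knockout, and Nr1d1 in the triple, whose intervals reached past 1 unit. For low genes, such as Nr1d1 in run 2, 1 unit on this scale is a larger fold in TPM.

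To ask whether a clock gene answered differently to the 3 knockouts, the own-run changes were subtracted from each other in a fit over all 22 libraries. The differences use separate control clones, and 0 of 10 clock genes were called in each. For triple minus double limma called 0.188% of 13295 genes, for triple minus single 3.57% and for double minus single 1.46%, and clock genes with an unadjusted p under 0.05 numbered 0, 2 and 2. Over all genes 8.39%, 15.0% and 15.5% had such a p. The largest were Nr1d1, with 0.90 for triple minus single (95% interval 0.17 to 1.63, limma adjusted p 0.201), and Per1, with -0.80 for double minus single (95% interval -1.53 to -0.07, limma adjusted p 0.271). For Clock the triple minus single difference was 0.43 (limma adjusted p 0.196) and for Cry2 the double minus single difference was -0.40 (limma adjusted p 0.17). Per2 differed by 0.17, 0.17 and 0.00 in triple minus single, double minus single and triple minus double.

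Per1 and Nr1d1 both lie on chromosome 11 and Nr1d2 on chromosome 14, and whole chromosomes stood apart in some double and triple knockout libraries. In the triple knockout the median of 1062 genes on chromosome 11 was -0.29 in replicate 1 and -0.04 in replicates 2 and 3. These are log2 differences from the mean of control clones 9 to 11. Per1 stood at -0.70, 0.05 and 0.33 in these libraries. In double knockout replicate 3 Per1 was at -1.46, while the chromosome 11 median was -0.05. Nr1d1 stood at 0.66, 0.70 and 1.13 in the triple knockout libraries, above its chromosome's median in each. The median of 414 genes on chromosome 14 was -0.06, -0.56 and -0.53 in the triple knockout, while Nr1d2 stood at 0.29, -0.04 and 0.15. In the double knockout that chromosome's median was -0.06, -0.54 and -0.18, while Nr1d2 stood at 0.28, 0.17 and -0.27. The part of these shifts in the clock values was not tested.

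**Figure D3:**
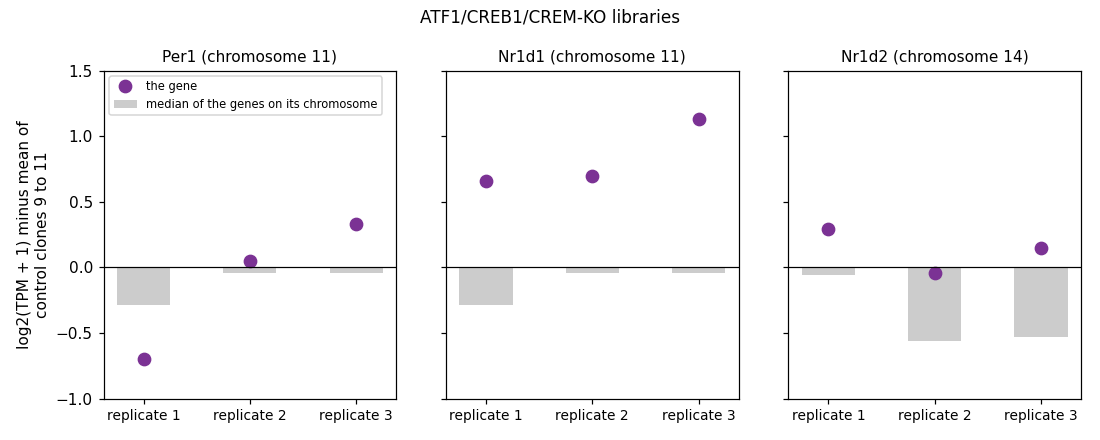
Log2(TPM + 1) minus the mean of control clones 9 to 11 in the 3 triple knockout libraries, with the gene as a point and the median of all tested genes on its chromosome as a bar from 0. Per1 is at -0.70 in replicate 1, where the chromosome 11 median is -0.29, and Nr1d1 is above 0 in all 3 libraries.

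Most clock genes stood at lower TPM in all libraries of run 2, with either label, than in the other runs. In control clones 1 to 5 the order began with Nr1d2 (36.9 TPM ± 5.71, SD, n = 5), Per2 (36.8 ± 3.60), Cry1 (33.4 ± 10.3) and Cry2 (31.5 ± 1.53), neighbours that overlapped each other. After a gap came Arntl (16.6 ± 1.75), Clock (15.0 ± 1.86) and Per1 (13.9 ± 1.19), which overlapped, and after another gap Per3 (9.62 ± 0.804), Dbp (8.35 ± 2.18) and Nr1d1 (5.61 ± 1.79), also overlapping as neighbours. Control clones 9 to 11 had Per2 first (42.8 TPM ± 4.40, SD, n = 3) and otherwise the same order, with Nr1d1 last at 2.96 ± 0.741. In control clones 6 to 8 Per2 (10.5 TPM ± 0.699, SD, n = 3) and Per1 (9.56 ± 3.08) led and overlapped, Per3 (2.16 ± 0.353) was the ninth, and Nr1d1 (0.773 ± 0.136) was again last.

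Between control clones of runs 2 and 1, limma called 83.5% of genes and 9 of 10 clock genes, all 9 lower in run 2, so that the share was near the background. The median change was -1.81 over the clock genes and -1.35 over all genes. Nr1d2 was lowest at -2.58, Cry1 at -2.27 and Cry2 at -2.20, while Dbp was at -0.76 and Per1, not called, at -0.53 (limma adjusted p 0.0523). When libraries were scaled instead to the median ratio of all genes, the sign turned for Per1 (0.99), Dbp (0.66) and Clock (0.18, not called). The other 7 kept theirs, from -0.16 for Per2, which was not called, to -1.08 for Nr1d2. Under that scaling the share of lower genes among those called fell from 84.0% to 46.2%. Between runs 3 and 2 limma called 81.4% of genes and 9 of 10 clock genes, all higher in run 3, with Dbp the exception (0.39, limma adjusted p 0.162). Under median-ratio scaling Per1 and Dbp were lower in run 3 than in run 2, at -0.83 and -1.01. Between runs 3 and 1 limma called 2.20% of genes and 0 of 10 clock genes, 2 of them with an unadjusted p under 0.05. Nr1d1 gave the largest of these differences, -0.72 (limma adjusted p 0.15), of a size close to its change in the triple knockout.

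Of 8 textbook pairs, Per1 and Per2 had the largest r within groups. After subtracting each group's mean, Pearson's r of Per1 and Per2 over the 22 libraries was 0.75 and Spearman's rho 0.57. The permutation p of r was 0.0113 and its value adjusted over the 8 pairs 0.0907. Without the 2 libraries farthest from the median of Per1, r was 0.56. Without the libraries of run 2 it was 0.51 over 16 libraries (adjusted permutation p 0.277). By median-ratio scaling, over all 22 libraries, r was 0.84 (adjusted permutation p 0.0595). The double knockout replicate 3 was the lowest library for both genes. Nr1d1 and Arntl gave an r of 0.54 and rho of 0.51, and Nr1d2 and Arntl an r of -0.59 and rho of -0.62, each with an adjusted permutation p of 0.0938. The r of Nr1d2 and Arntl was -0.31 without run 2. None of the 8 pairs passed adjustment.

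**Figure D4:**
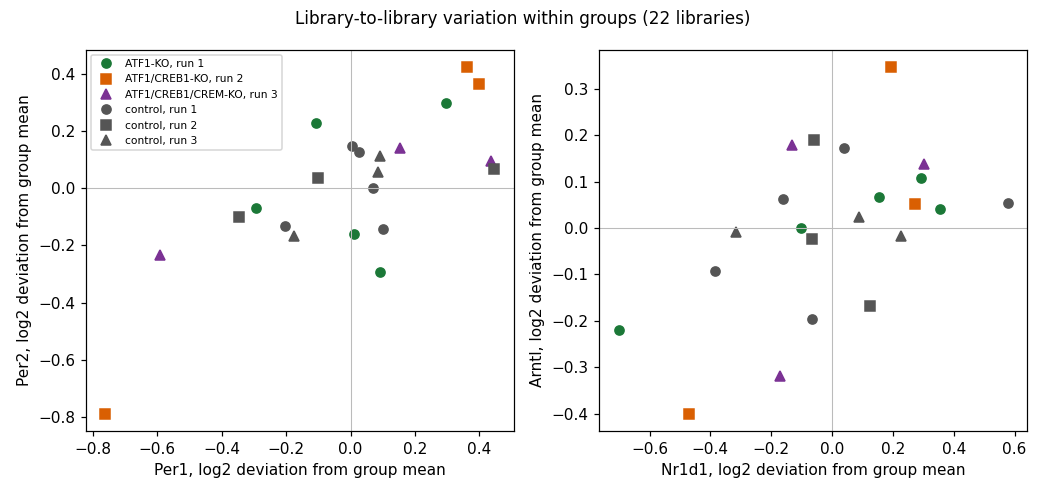
Log2 deviation of each library from the mean of its group in its run, for Per1 against Per2 (left) and Nr1d1 against Arntl (right), with 22 points per panel, colours for the labels and shapes for the runs. The point at the lower left of the Per1 panel is double knockout replicate 3, which is low for both genes.

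The genes whose deviations from the own-run control mean were most like those of Per1 over the 22 libraries, among 10497 genes, were Ssh2 and Kremen1 (Pearson's r 0.88 each). Both lie on chromosome 11, as Per1 does. For Per2 they were Ctdsp2 and Kif16b (r 0.83 each), on chromosomes 10 and 2, while Per2 lies on chromosome 1. The libraries share cells, medium and scaling, and these values are a description.

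Partners of the clock, a list of 24 genes for kinases, ubiquitin ligases, nuclear receptors and other regulators, had 5 of 21 tested genes called in the triple knockout, beside the 9.17% called of all genes. In limma's differences between knockouts 0 of the 5 were called. Higher were Ciart, which encodes a repressor of the BMAL1 and CLOCK pair, and Wee1, a cell cycle kinase gene with E-boxes. Ciart was at 8.52, 8.91 and 10.0 TPM in the controls and at 14.61, 14.7 and 17.12 TPM in the knockout (log2 change 0.70, SE 0.13, limma adjusted p 0.0230). Control clones 1 to 5 had 15.65 to 28.47 TPM of Ciart, and the difference of control runs 3 and 1 was itself called (-1.08, limma adjusted p 0.000599). Wee1 changed by 0.48 (limma adjusted p 0.0401). Lower were Timeless, Csnk1e and Nono. Timeless, which acts mainly at replication forks in mammals, was at 122.75, 126 and 137.6 TPM in the controls and at 79.52, 80.2 and 86.01 TPM in the knockout (log2 change -0.65, SE 0.08, limma adjusted p 0.00815). Csnk1e, a casein kinase that phosphorylates the Period proteins, changed by -0.51 (limma adjusted p 0.0277) and Nono, an RNA-binding partner of Period proteins, by -0.35 (limma adjusted p 0.0302). Csnk1d, another casein kinase gene of the list, went the other way by 0.27, with no overlap but not called (limma adjusted p 0.0986). Leaving out 1 library at a time kept Timeless called in 6 of 6 fits and each of the other 4 called partners in 1 of 6. That fit left out triple knockout replicate 1, and in it 10 partners and 25.1% of all genes were called. The groups did not overlap for 11 of the 21 partners, beside 34.6% of all genes. The largest of these changes was that of Fbxl21, a ubiquitin ligase gene for Cryptochromes (log2 change 0.93, limma adjusted p 0.0642). It was at 0.37 to 0.46 TPM in the controls and 1.23 to 2.09 TPM in the knockout. Fbxl21 reached the mean of 1 TPM required for testing only through the knockout libraries. Control clones 1 to 5 had 0.32 to 1.96 TPM of it and control clones 6 to 8 had 0.71 to 2.49 TPM. In the double knockout Ciart stood at 163% of the control mean with no overlap and a limma adjusted p of 0.502. Partners with an unadjusted p under 0.05 numbered 2 of 21 in the single, 1 of 19 in the double and 9 of 21 in the triple knockout, beside 7.61%, 9.53% and 27.0% of all genes.

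**Figure D5:**
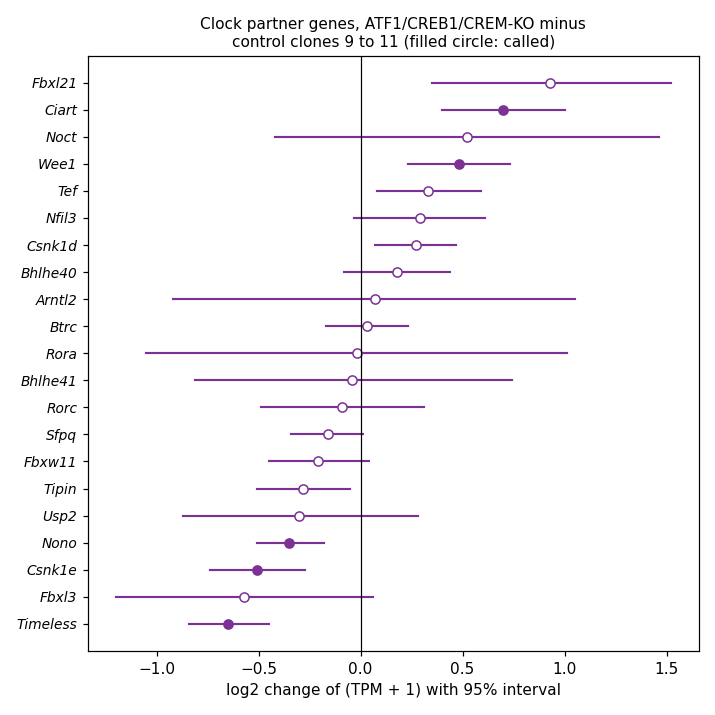
Log2 change of (TPM + 1) of the 21 tested clock partner genes in the triple knockout against control clones 9 to 11, with limma's 95% interval, ordered by change. The 5 filled circles are the called genes, Ciart and Wee1 higher and Nono, Csnk1e and Timeless lower.

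Genes of a further pair of lists, known to share cAMP or glucocorticoid input with Per1, were read from the same fits. Of 15 genes known to respond to cAMP, 13 were tested and 5 called in the triple knockout, with a list median of -0.48, beside 9.17% called and a median of -0.05 over all genes. Lower were Pde4b (-4.47, limma adjusted p 0.000413), Nr4a1 (-1.85, limma adjusted p 0.00259), Fos (-0.87, limma adjusted p 0.00889) and Id1 (-0.93, limma adjusted p 0.0252), and higher was Cited2 (0.45, limma adjusted p 0.0442). In the same libraries Per1 and Per2 were at -0.11 and -0.04. Of 10 genes known to respond to glucocorticoids, 9 were tested and 2 called, both higher: Sgk1 (3.57, limma adjusted p 0.00418) and Fkbp5 (0.85, limma adjusted p 0.0405). The list median was 0.38, with 6 of the 9 changes above 0 and 3 below. Lcn2 had the lowest, -2.20, with no overlap but not called (limma adjusted p 0.0961). Leaving out 1 library kept Pde4b, Nr4a1 and Sgk1 called in 6 of 6 fits, Fos in 4, and Id1, Cited2 and Fkbp5 in 1, that without triple knockout replicate 1. Neither list nor the partners had a gene called by limma in the single or double knockout, where unadjusted p-values under 0.05 numbered 1 and 3 in the cAMP list and 0 and 2 in the glucocorticoid list, beside 7.61% and 9.53% of all genes.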

How the data were processed

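Total RNA of each library was made into cDNA by SMARTer V4 with PCR, and Nextera XT libraries were read as pairs, per the labels' protocols. The authors deposited 1 table of TPM values. STAR and RSEM are named in the submitters' processing notes; versions, build, annotation and strand setting were not given in the sources used here. Of 40 samples, 22 have a column. TPM hides depth, so no counting interval is given. All columns sum to the same total within rounding, and no pair was identical. Differences were tested with limma 3.58.1 (R 4.3.3; lmFit, eBayes with a trend) on log2(TPM + 1), a pseudocount of 1, for genes averaging at least 1 TPM over the compared libraries, and called at an adjusted p under 0.05. The fits were tested on simulated data. Runs are sets of consecutive library numbers, which the labels do not call batches; run and knockout are told apart only through the control clones of each run. Permutation tests shuffled 100000 times within group. Chromosomes and overlaps came from GENCODE M21 and promoters from RefSeq (GRCm38.p6). Named were the clock genes always, called members of the partner, cAMP and glucocorticoid lists, and the 3 partners that moved most without overlap. Crem, Cd68, Lrp2, Csnk1d and Lcn2 were named after their values were seen. The members and lists were chosen with earlier results of these data known. Alternatives were other scalings, filters, pseudocounts, control sets, a covariate for run, and leaving out each library.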

Additional observations from a re-analysis of the deposited data

Results flagged for a closer look

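In the 20 groups tested for a single far library, no clock gene stood apart. These were control clones 1 to 5 and the single knockout, for each of the 10 clock genes. Groups of 3 libraries, those of the double and triple knockouts among them, were too small for that test. No clock gene differed in its response between knockouts by limma's test of the difference. Of the genes set beside Per1, with 13 tested in the cAMP list and 9 in the glucocorticoid list, 5 differed in at least 1 of these tests. Over all genes limma called 0.188% for triple minus double, 3.57% for triple minus single and 1.46% for double minus single. Pde4b, a cAMP phosphodiesterase gene, differed by -3.65 on the log2 scale between triple and double knockout, triple minus double (limma adjusted p 2.15e-07), and by -4.49 for triple minus single (limma adjusted p 3.24e-10). Sgk1, a kinase gene that responds to glucocorticoids and aldosterone, differed by 4.96 for triple minus single (limma adjusted p 0.0106) and by 4.37 for double minus single (limma adjusted p 0.0404). It spread from 36.34 to 833.59 TPM among control clones 1 to 5, the controls of the single knockout. For triple minus single, Nr4a1 differed by -2.11 (limma adjusted p 0.00083), Fos by -1.18 (limma adjusted p 0.0431) and Nr4a2 by -1.32 (limma adjusted p 0.0489).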

How the results depend on the processing

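With own-run controls, 188 of 189 values of single clock genes kept direction and side of the threshold under other scalings, filters, pseudocounts and fits. The exception was Per3 in the double knockout, 0.01 under median-ratio scaling. With no filter, no variance trend, run as a covariate or a replicate block, the log2 change is the same by arithmetic. In those fits the direction could not turn, and only the adjusted p could move. Leaving out 1 library turned 20 of 218 values, all not called. Values that round to 0, such as Cry1 in the double, were given no direction in these counts. The ranges that crossed 0 were -0.18 to 0.12 for Cry1, -0.17 to 0.10 for Nr1d1 and -0.01 to 0.20 for Dbp (single); -0.25 to 0.35 for Per2, -0.08 to 0.10 for Cry1, -0.22 to 0.13 for Per3, -0.30 to 0.07 for Arntl and -0.05 to 0.23 for Nr1d2 (double); and -0.33 to 0.19 for Per1, -0.12 to 0.08 for Per2, -0.02 to 0.19 for Per3 and -0.11 to 0.14 for Dbp (triple). Nr1d1 in the triple ranged from 0.67 to 0.94, with limma adjusted p 0.0367 to 0.199. Clock genes called in the triple ranged from 0 to 1, and partners from 1 to 10 beside 5, while 1.4% to 25.1% of all genes were called. In the double, 2 of the 6 such fits held no Nr1d1, which fell under the filter.

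Setting each knockout against all 11 control clones mixes runs, and most genes differ between the controls of run 2 and those of either other run; the median of all genes then moves to 0.36, -0.96 and 0.28. In the double, 6 clock genes and 7 partners were then called, beside 32.1% of all genes. Clock was then at -0.89, Nr1d1 at -0.86, Nr1d2 at -1.81 and Dbp at -0.04. In the single, Per2 was 0.20, Per3 0.36, Cry1 0.56, Clock 0.12, Nr1d1 0.63 and Nr1d2 0.66. In the triple, Per1 was 0.14, Per2 0.58, Cry1 0.45, Cry2 0.58, Arntl 0.44, Dbp -0.05 and Nono 0.25. There 0 partners were called, beside 1.03% of all genes. Partners called in the triple were 3 with no filter, with no variance trend, or with run as a covariate.

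Over all genes, the single gave 0 calls, and 0 to 1 leaving out a library. The double gave 9: 4260 against all controls, 0 with no filter, 18 by median-ratio scaling, 20 rescaled without ribosomal protein and mitochondrial genes, 2 with no trend, 609 with run as a covariate, and 0 to 60 leaving out a library, 60 without double knockout replicate 3. The triple gave 1216: 137 against all controls, 710 with no filter, and 185 (without control clone 9) to 3317 (without triple knockout replicate 1). Triple minus double gave 25, and 16 with a pseudocount of 0.1 or median-ratio scaling; double minus single 194, and 414 by that scaling; control runs 3 minus 1 gave 293, and 184 by that scaling. The r of Dbp and Arntl, 0.16, was -0.13 without run 2 and -0.11 by median-ratio scaling, and that of Dbp and Per3, 0.08, was -0.05. The causes were not tested. A replicate block could be fitted for the single knockout only, with 0 genes called and Per1 at 0.10; correlations of same-numbered libraries were -0.10 to 0.08, so the numbers were not taken as pairs.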
